A study of Danio rerio with 48 samples.

Results

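The fatty acid binding proteins (Fabps) of the zebrafish were followed as transcripts in wild type whole embryos and in yolk tissue. The members were the rows of the deposited count table whose symbol is fabp1a, fabp1b.1, fabp2, fabp3, fabp6, fabp7a, fabp7b, fabp10a, fabp11a or fabp11b. All 10 were found among 36109 genes, and 9 of them were among the 26268 genes with enough counts to be tested. The exception was fabp1a, which had 2 counts in a single library. The RefSeq gene table lists fabp11a and fabp11b under the names fabp4a and fabp4b.

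Whole embryos and yolk were each collected at 6, 10, 26 and 48 hours post fertilization (hpf), with 4 libraries for each of the 8 groups. All groups were of wild type genotype and none was given a treatment in the labels. The labels do not say how yolk was separated from the body, how many embryos entered a library, or whether replicates came from separate clutches, so p-values measure the spread between these libraries, which may be technical. A whole embryo at these ages still carries its yolk, so the compared tissues are not exclusive of each other.

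Fabps are small cytosolic proteins that bind long-chain fatty acids and related lipids in an inner cavity and carry them between membranes, lipid droplets, mitochondria and the nucleus. In the zebrafish embryo the yolk is taken up through the yolk syncytial layer, a nucleated layer around the yolk that breaks down its lipids and repacks them into lipoproteins for the body. Members of the family are named after the tissues in which they are abundant, such as liver, intestine, heart, brain and adipocytes.

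Levels are given as CPM, the counts of a gene relative to the scaled library total, after scaling by TMM, a method that sets most genes equal between libraries. CPM is not corrected for transcript length, so levels were compared between groups for 1 gene and not between genes. Tests are edgeR quasi-likelihood tests over all tested genes with Benjamini-Hochberg adjustment and a threshold of 0.05, and errors of log2 changes are standard errors (SE). In tissue samples, fewer cells of a type and less RNA per cell cannot be told apart.

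Library totals ran from 32302472 to 39765045 counts. The yolk libraries carried markers of the syncytial layer: of 9 tested, 8, 7, 5 and 7 were higher in yolk than in whole embryo at 6, 10, 26 and 48 hpf, and 1, 1, 0 and 1 were lower. Of 9 epidermal markers 8, 8, 9 and 7 were lower in yolk and 1, 1, 0 and 1 higher. Over all genes 24.8%, 24.5%, 20.6% and 22.8% were higher in yolk and 27.4%, 29.9%, 25.3% and 27.5% lower. Replicate 1 of yolk at 26 hpf stood apart. Its summed muscle and heart markers reached 5377 CPM against 259 to 495 CPM in the other 3 libraries, and its summed neural markers reached 402 CPM against 32.4 to 68.0 CPM. Without it the list counts at 26 hpf changed for some lists, with 5 muscle and heart markers lower in place of 2 and 5 eye and lens markers lower in place of 3. Member calls that this library decided are given with and without it. It held all counts of fabp10a and fabp11b in yolk at 26 hpf, so fitted values of these members that involve that group depend on it.

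Of the members, fabp1b.1 and fabp2 were higher in yolk at all 4 ages, and the others were called at some ages or none. At 6 hpf 3 of 9 tested members were higher in yolk and 0 lower, where 24.8% of all genes were called higher and 27.4% lower, and 0 were lower also at an unadjusted p under 0.05 or in the DESeq2 Wald test. At 10 hpf 4 were higher and 1 lower, against 24.5% and 29.9% of all genes. At 26 hpf 3 were higher and 3 lower, against 20.6% and 25.3%. At 48 hpf 3 were again higher and 3 lower, against 22.8% and 27.5%. Under library totals in place of TMM the shares of all genes called higher were 19.1%, 15%, 10% and 11.5%, and those called lower were 33.7%, 47%, 57% and 42.5%. The median log2 difference of all genes was -0.05, -0.22, -0.25 and -0.04 with TMM and -0.42, -1.10, -1.31 and -0.65 with library totals. With the libraries of the comparison alone, fabp11b at 6 hpf and fabp10a at 10 hpf, both among the members called higher, had too few counts to be tested. At 6 hpf 2 of 6 tested members were then higher and 0 lower, against 29.1% and 27.8% of all genes. At 10 hpf 4 of 5, now with fabp7a, were higher and 1 lower, against 32% and 34.5%. At 26 hpf fabp11b, among the members called lower, also had too few counts to be tested. There 3 of 6 were higher and 2 lower, against 25.7% and 18.7%. At 48 hpf 3 of 8 were higher and 4, now with fabp3, lower, against 31.9% and 36.3%. The counts of members were not tested against these shares or between ages, and neither were the counts of the gene lists. Both fabp1b.1 and fabp2 were higher in yolk at all 4 ages under each of these scalings.

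**Figure D1:**
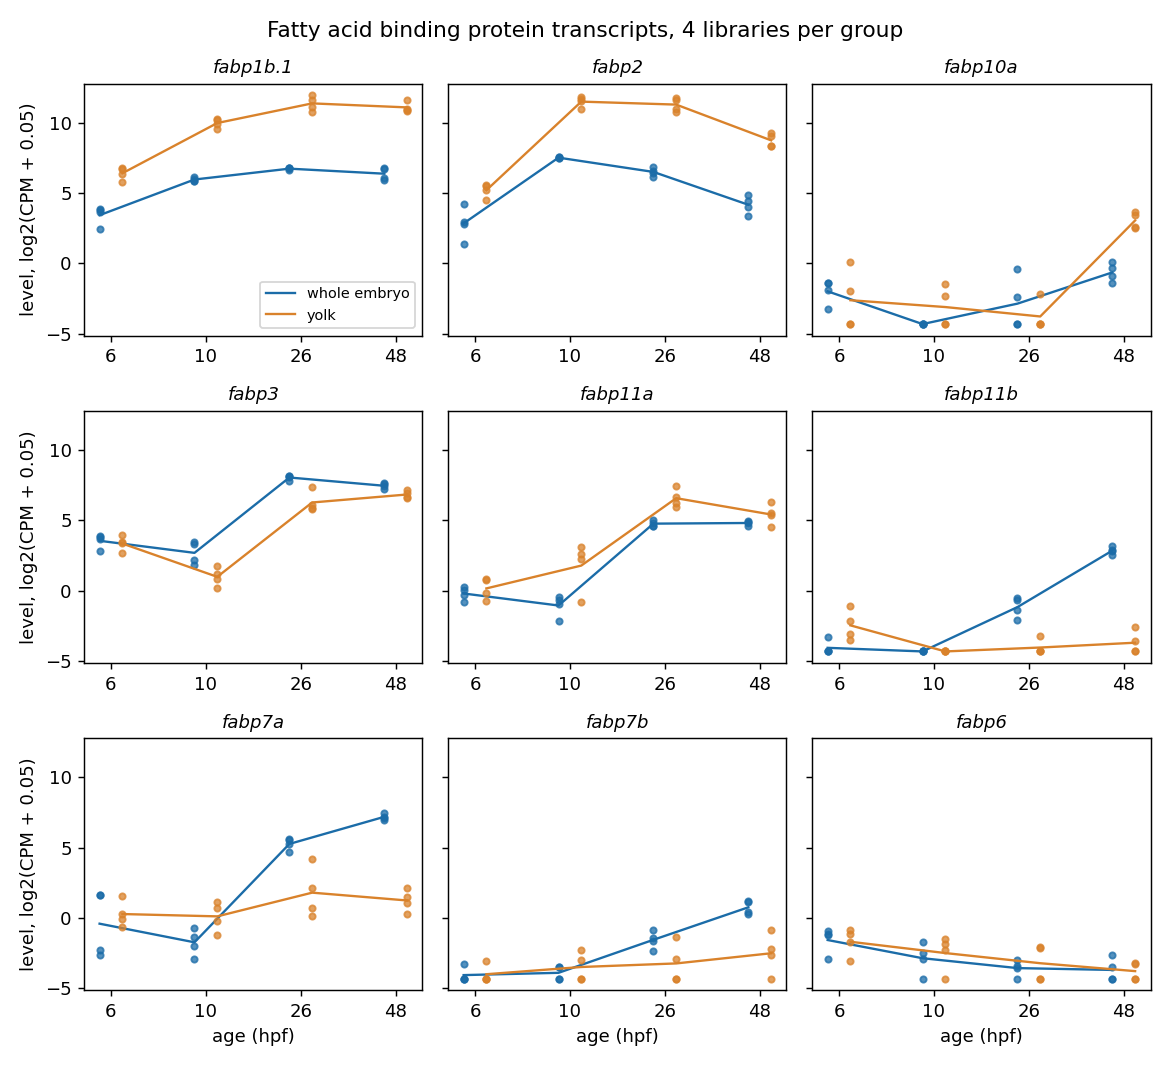
Level of 9 members in each library, as log2(CPM + 0.05) on the vertical axis against age in hpf; points are libraries, 4 per group, lines join group means on this log scale, and points at the bottom are libraries with 0 counts. fabp1b.1 and fabp2 run higher in yolk at every age, fabp7a and fabp11b rise in whole embryos after 10 hpf, and fabp10a is high in yolk at 48 hpf alone.

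The liver-type member fabp1b.1 was raised in yolk at each age, and its level there climbed from 6 to 26 hpf. In yolk it measured 107, 55.1, 82.6 and 105 CPM in replicates 1 to 4 at 6 hpf. At 10 hpf the yolk libraries read 1234, 965, 1174 and 731 CPM, and at 26 hpf 1757, 2208, 3987 and 3177 CPM. At 48 hpf they read 3121, 1811, 2040 and 1931 CPM. The libraries of 6, 10 and 26 hpf did not overlap each other, whereas the libraries of 26 and 48 hpf overlapped.

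In whole embryos fabp1b.1 took the same order of ages over a smaller span. The libraries held 12.3, 14.6, 5.31 and 13.5 CPM at 6 hpf and 57.6, 58.3, 68.7 and 64.5 CPM at 10 hpf. At 26 hpf they held 108, 109, 99.8 and 108 CPM, and at 48 hpf 106, 107, 66.9 and 61.8 CPM. Every yolk library exceeded every whole-embryo library of its age.

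The excess of fabp1b.1 in yolk was 7.63-fold at 6 hpf (log2 difference 2.93 ± 0.29, SE; edgeR adjusted p = 7.01e-10). It was 16.5-fold at 10 hpf (4.04 ± 0.30), 26.2-fold at 26 hpf (4.71 ± 0.31) and 26.1-fold at 48 hpf (4.70 ± 0.31). With library totals the log2 differences were 2.55, 3.16, 3.55 and 4.08, all past the threshold. Ordered by level, yolk at 26 and at 48 hpf came first with a difference short of the threshold (edgeR adjusted p = 0.402), yolk at 10 hpf came next, and whole embryos at 26 hpf, yolk at 6 hpf, whole embryos at 48 hpf and whole embryos at 10 hpf followed with no neighbours past the threshold. Whole embryos at 6 hpf came last, 5.44-fold below those at 10 hpf.

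The neighbouring gene fabp1b.2, which lies next to fabp1b.1 in the RefSeq assembly GRCz12tu with 0 genes between them, was measured on its own row. It was far lower on the count scale, at 7.93 ± 4.87 CPM in yolk and 0.103 ± 0.0857 CPM in whole embryos at 48 hpf (SD, n = 4). Reads of such similar copies may be split or lost in counting. Summing both rows changed none of the 13 calls of fabp1b.1.

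The intestine-type member fabp2, a binder of fatty acids in enterocytes of the gut, was also higher in yolk at every age, with its highest levels at 10 and 26 hpf. In yolk its 4 libraries read 45.3, 37.7, 22.5 and 47.0 CPM at 6 hpf and 3610, 3212, 2921 and 2056 CPM at 10 hpf. At 26 hpf they read 1757, 2016, 3200 and 3413 CPM, and at 48 hpf 619, 317, 521 and 329 CPM. The rise between 6 and 10 hpf separated the groups fully, the 10 and 26 hpf libraries overlapped, and all libraries of 48 hpf lay below those of 26 hpf.

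In whole embryos fabp2 was highest at 10 hpf. They held 6.79, 18.6, 2.59 and 7.69 CPM at 6 hpf, and 176, 190, 181 and 185 CPM at 10 hpf. The libraries fell to 113, 94.0, 71.2 and 87.5 CPM at 26 hpf and to 21.6, 29.0, 16.1 and 10.1 CPM at 48 hpf. No 2 neighbouring ages overlapped.

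The yolk excess of fabp2 was 4.28-fold at 6 hpf (log2 difference 2.10 ± 0.39, SE; edgeR adjusted p = 4.13e-05). Without replicate 2 of whole embryos, the library at 18.6 CPM, it was larger (log2 2.74, edgeR adjusted p = 4.99e-07). The excess was 16.2-fold at 10 hpf (4.01 ± 0.42), 28.4-fold at 26 hpf (4.83 ± 0.43) and 23.3-fold at 48 hpf (4.54 ± 0.43). With library totals these 3 log2 differences were 3.13, 3.66 and 3.91, all past the threshold. Within yolk fabp2 rose 77.4-fold from 6 to 10 hpf and fell 5.82-fold from 26 to 48 hpf. In order of level, yolk at 10 and 26 hpf came first with a difference short of the threshold (edgeR adjusted p = 0.695), and yolk at 48 hpf lay below them and above whole embryos at 10 hpf.

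**Figure D2:**
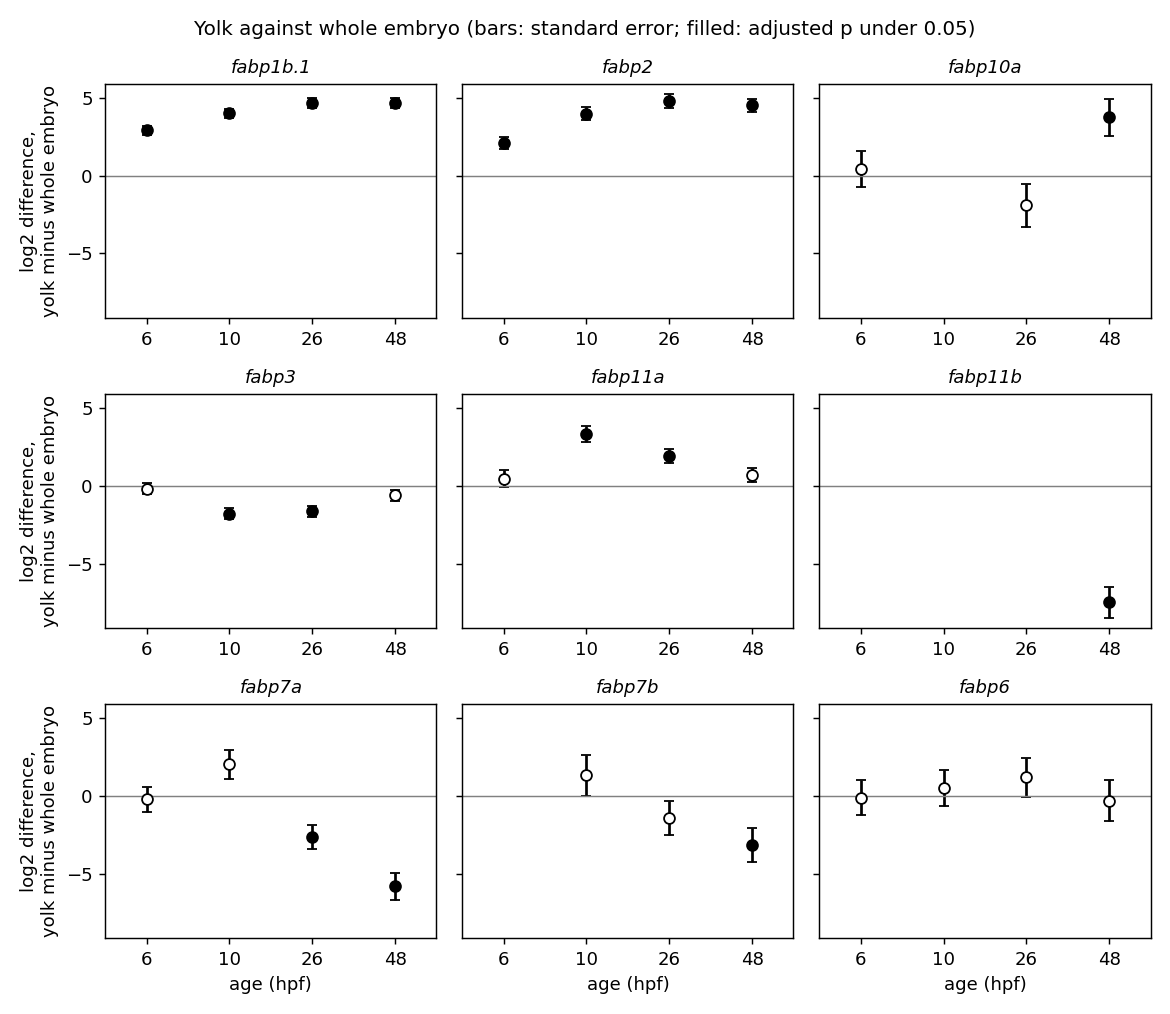
Log2 difference of yolk from whole embryo at each age in hpf for 9 members, with bars of 1 standard error; filled points passed the edgeR threshold. Comparisons in which a group held 3 counts or fewer are left out, and fabp1b.1 and fabp2 stay above 0 while fabp7a and fabp7b lie below 0 at 48 hpf.

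Because fabp1b.1 and fabp2 were high in the same tissue but differed in their course over age, their counts were set against each other within each library, a ratio that does not depend on scaling. This ratio was chosen after the levels had been seen. In yolk the median ratio of fabp2 to fabp1b.1 counts was 0.436 at 6 hpf, 2.87 at 10 hpf, 0.957 at 26 hpf and 0.187 at 48 hpf. In whole embryos it was 0.560, 2.96, 0.838 and 0.222 at the same ages.

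In both tissues the ratios of the 4 libraries of an age did not overlap those of the neighbouring age at any of the 3 steps. These steps are a description, since the ratio was formed because the courses over age were seen to differ. Between the tissues the ranges overlapped at each age. Whole embryos still carry their yolk, so the ratios of the tissues are not independent, and tests between them cannot show that the tissues are alike. In unpaired exact permutation tests the adjusted p over 10 comparisons was 0.327, 0.771, 0.464 and 0.635 from 6 to 48 hpf.

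Libraries of the same replicate number varied together between the tissues, so the ratios were also compared within the 4 pairs, a test added after the data were seen. At 6 hpf the ratio was lower in yolk in all 4 pairs, by a mean log2 difference of -0.61 ± 0.15 (SE, n = 4 pairs). The exact sign-flip permutation test gave p = 0.125 there, the smallest that 4 pairs allow, so this design cannot reach the threshold. At 10, 26 and 48 hpf the mean log2 differences were -0.033, 0.15 and -0.13, with 3, 1 and 2 of the 4 pairs lower in yolk.

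**Figure D3:**
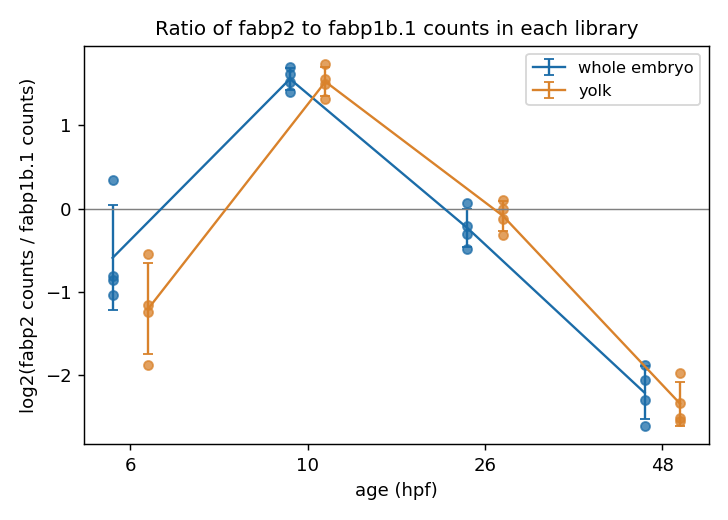
Log2 ratio of fabp2 counts to fabp1b.1 counts in each library against age in hpf; points are libraries, and lines with bars give the mean and SD of 4 libraries. Both tissues have their highest ratios at 10 hpf and their lowest at 48 hpf.

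The liver marker fabp10a, a binder of bile acids and fatty acids in zebrafish hepatocytes, was near 0 in most groups. At 48 hpf yolk held 5.64, 12.4, 5.92 and 10.9 CPM and whole embryos 0.485, 0.998, 0.320 and 0.748 CPM. All 4 yolk libraries lay above all 4 of whole embryos, a 13.7-fold difference (log2 3.77 ± 1.18, SE; edgeR adjusted p = 0.0093), or 3.18 on the log2 scale with library totals. Yolk at 26 hpf held 6 counts in replicate 1 and 0 in the other 3 libraries, so the rise to 48 hpf rests on 1203 against 6 counts (edgeR adjusted p = 0.000546).

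At the earlier ages fabp10a was at the edge of detection. At 10 hpf it was called higher in yolk on 12 counts against 0 in whole embryos. With 3 counts over the group set in place of 0 the ratio was 7.32, without an interval for the 12 counts. That call was lost under library totals (log2 4.65, edgeR adjusted p = 0.0773), and without each of 6 of the 8 libraries in turn, where the edgeR adjusted p was 0.0653 to 0.158; the exceptions were replicates 1 and 3 of yolk. In whole embryos fabp10a had 35 counts at 6 hpf, 0 at 10 hpf and 45 at 26 hpf. With 3 counts set in place of 0 the fall was 14.9-fold and the rise 13.9-fold. The rise was lost without replicate 4 of whole embryos at 26 hpf (log2 3.84, edgeR adjusted p = 0.11).

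Other liver and gut genes were measured beside fabp10a. Of 9 other liver markers tested, 7 were higher in yolk at 48 hpf and 0 lower, and 8 were already higher at 26 hpf with 1 lower. Over all genes 22.8% were higher and 27.5% lower at 48 hpf, and 20.6% and 25.3% at 26 hpf. Several, such as tfa (transferrin) at 24420 CPM and fgb (fibrinogen) at 1363 CPM, were high in yolk at 26 hpf, when fabp10a was at 0.0435 CPM. Summed liver markers spanned 15004 to 39144 CPM in yolk at 26 hpf and 15426 to 24119 CPM at 48 hpf, against 632 to 940 CPM in whole embryos at 48 hpf. Of the 9 markers, 1 rose and 1 fell in yolk from 26 to 48 hpf, against 12% and 16.1% of all genes.

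Some gut markers were higher in yolk already at the earlier ages. Of 7 tested, 3, 5 and 5 were higher in yolk at 6, 10 and 26 hpf and 1, 0 and 0 lower. All 7 were higher at 48 hpf, with a median log2 difference of 4.02 against -0.04 over all genes. From 6 to 48 hpf 24.8%, 24.5%, 20.6% and 22.8% of all genes were higher and 27.4%, 29.9%, 25.3% and 27.5% lower. From 26 to 48 hpf 5 of the 7 rose in yolk and 0 fell, against 12% and 16.1% of all genes. The sum of the 7, mostly apoa1a, overlapped between the ages, at 25974 to 57013 CPM and 30356 to 48677 CPM. Among those that rose, the microvillus gene vil1 measured 0.283 ± 0.212 CPM in yolk at 26 hpf and 37.1 ± 4.73 CPM at 48 hpf (SD, n = 4), against 2.71 CPM in whole embryos at 48 hpf. The intestinal transcription factor cdx1b rose from 3.79 to 87.3 CPM and the claudin cldn15la from 0.531 to 57.6 CPM in yolk. The part of attached gut or liver tissue in the level of fabp10a at 48 hpf was not tested. Over the same step the intestine-type member fabp2 fell in yolk.

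**Figure D4:**
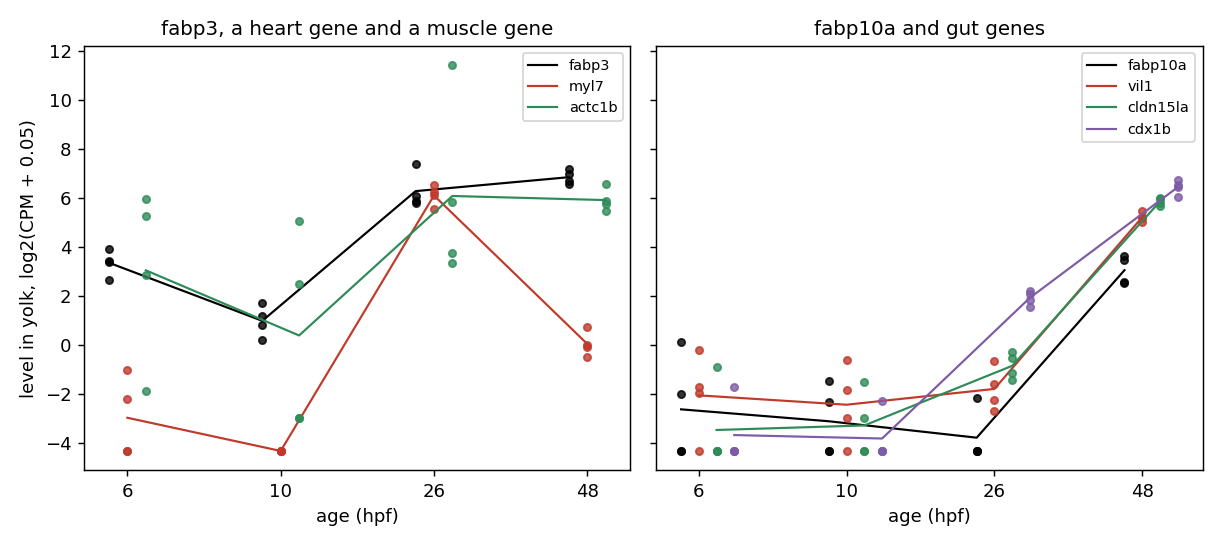
Levels in yolk libraries as log2(CPM + 0.05) against age in hpf; points are the 4 libraries of an age and lines join their means. Left, fabp3 stays high at 48 hpf while the heart gene myl7 drops, and replicate 1 at 26 hpf is the high point of the muscle gene actc1b; right, fabp10a is high at 48 hpf together with vil1, cldn15la and cdx1b.

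Bile acid genes were described because fabp10a and the ileal member fabp6 bind bile acids. Of 10 tested, 7 were higher in yolk at 48 hpf and 0 lower, against 22.8% and 27.5% of all genes. The median log2 difference was 3.80. The bile acid synthesis enzyme cyp8b1 measured 14.2 CPM in yolk and 0.590 CPM in whole embryos, the export pump abcb11b 13.0 and 0.588 CPM, and the bile acid receptor nr1h4 13.2 and 0.781 CPM. At 6, 10 and 26 hpf the counts higher and lower were 4 and 1, 3 and 0, and 5 and 1. The shares of all genes were 24.8% and 27.4%, 24.5% and 29.9%, and 20.6% and 25.3%.

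By contrast fabp6 stayed at or below 0.332 CPM as a group mean, with the highest single library at 0.502 CPM. No comparison of fabp6 passed the threshold. The liver-type paralog fabp1a was detected in whole embryo replicate 3 at 26 hpf alone, with 2 counts. In the other groups 0 counts were seen, which allows a mean of up to 0.0302 CPM, the highest of these limits, in yolk at 26 hpf, for counting error only.

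The heart-type member fabp3, which supplies fatty acids for oxidation in heart and muscle, went the other way at the middle ages. At 10 hpf yolk held 1.12, 2.23, 3.26 and 1.68 CPM and whole embryos 4.38, 10.9, 9.78 and 3.56 CPM. At 26 hpf yolk held 165, 66.6, 58.5 and 55.02 CPM and whole embryos 266, 288, 222 and 286 CPM. In both cases all yolk libraries lay below all whole-embryo libraries.

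The difference in fabp3 was 3.45-fold at 10 hpf (log2 -1.78 ± 0.38, SE; edgeR adjusted p = 0.000202) and 3.08-fold at 26 hpf (-1.62 ± 0.35). Without replicate 1 of yolk the log2 difference at 26 hpf was -2.15. With library totals the differences at 10 and 26 hpf were -2.65 and -2.56. At 6 hpf the tissues overlapped, at 6.23 to 15.1 CPM in yolk and 7.12 to 14.7 CPM in whole embryos. At 48 hpf yolk read 123, 102, 94.4 and 143 CPM and whole embryos 189, 170, 147 and 201 CPM, without overlap but short of the threshold (log2 -0.61 ± 0.34; edgeR adjusted p = 0.143). With library totals it passed (-1.22, edgeR adjusted p = 0.0121), and also when the 8 libraries were fitted alone (-0.58, edgeR adjusted p = 0.00442).

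The rise of fabp3 from 10 to 26 hpf was large in both tissues, at 41.6-fold in yolk (log2 5.38 ± 0.42, SE) and 37.1-fold in whole embryos (5.22 ± 0.41). Within yolk it had fallen 5.13-fold from 6 to 10 hpf (edgeR adjusted p = 7.78e-06). Without replicate 1 of yolk at 26 hpf, the mean of that group was 60.04 ± 5.92 CPM (SD, n = 3) instead of 86.2. Its step to 48 hpf then passed the threshold as a rise (log2 0.95, edgeR adjusted p = 0.0253), which with all libraries it did not (0.42, edgeR adjusted p = 0.39). The difference between the tissues in that step passed as well without it (1.54, edgeR adjusted p = 0.00947; with it 1.01, 0.139).

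Muscle and heart markers were read beside fabp3. At 26 hpf 5 of 10 were higher in yolk and 2 lower, and the 5 were heart genes, among them the myosin light chain myl7 at 70.2 ± 18.6 CPM in yolk against 15.01 ± 2.66 CPM in whole embryos (SD, n = 4). Over all genes 20.6% were higher and 25.3% lower. With library totals 1 marker was higher and 3 were lower, against 10% and 57% of all genes. Without replicate 1 of yolk 5 were higher and 5 lower. At 48 hpf 0 were higher and 9 lower, against 22.8% and 27.5% of all genes. In yolk myl7 was then at 1.03 CPM, cmlc1 at 0.418 CPM and nppa at 0.102 CPM, while the atrial myosin myh6, singled out after its values had been seen, was at 20.6 CPM. Summed markers of this list spanned 125 to 218 CPM in yolk and 19307 to 24455 CPM in whole embryos at 48 hpf, and 259 to 5377 against 8578 to 9816 CPM at 26 hpf. In yolk fabp3 averaged 116 CPM at 48 hpf. The heart genes myl7, cmlc1 and nppa were then far below their levels of 26 hpf, and myh6 had fallen from 56.4 to 20.6 CPM. Even so, myh6 read 15.5 to 28.3 CPM in yolk at 48 hpf against 7.48 to 10.85 CPM in whole embryos, without overlap. It was not called higher, and the other 9 markers were lower in yolk. The part of attached heart or muscle tissue in the level of fabp3 was not tested.

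The brain-type members fabp7a and fabp7b, which mark radial glia and neural progenitors, had their highest group means in whole embryos at 48 hpf. Whole embryos held 0.203, 0.0857, 0.349 and 0.557 CPM of fabp7a at 10 hpf and 48.4, 37.7, 26.3 and 45.6 CPM at 26 hpf. They held 140, 174, 149 and 127 CPM at 48 hpf. The 3 ages did not overlap, and the rise from 10 to 26 hpf was 132-fold (log2 7.03 ± 0.98, SE; edgeR adjusted p = 1.01e-06).

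In yolk fabp7a read 18.3, 1.59, 1.05 and 4.42 CPM at 26 hpf and 1.198, 2.02, 2.79 and 4.27 CPM at 48 hpf. All yolk libraries lay below all whole-embryo libraries at both ages, by 6.23-fold at 26 hpf (log2 -2.62 ± 0.77, SE) and 57.4-fold at 48 hpf (-5.84 ± 0.90; edgeR adjusted p = 4.92e-06). The high value at 26 hpf was replicate 1, the library with the most muscle and neural markers. Without it yolk averaged 2.35 CPM and the log2 difference was -4.09 (edgeR adjusted p = 0.000124). With library totals the differences were -3.45 and -6.43 at 26 and 48 hpf. The rise of fabp7a in yolk from 10 to 26 hpf (log2 2.37, edgeR adjusted p = 0.0155) was lost without it (0.90, edgeR adjusted p = 0.339). It was also lost without replicate 3 of 10 hpf (2.07, edgeR adjusted p = 0.0523) and with the libraries of the comparison alone (2.35, edgeR adjusted p = 0.0537).

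At the early ages fabp7a was low and uneven. At 10 hpf yolk read 1.62, 0.831, 0.379 and 2.14 CPM, overlapping whole embryos. Its higher mean was short of the threshold (log2 2.04, edgeR adjusted p = 0.0627). This difference passed with DESeq2 size factors (2.21, edgeR adjusted p = 0.0416) and in the DESeq2 Wald test (2.24, DESeq2 adjusted p = 0.0147). It also passed with the libraries of the comparison alone (2.17, edgeR adjusted p = 0.0158) and without replicate 3 of yolk (2.34, edgeR adjusted p = 0.043). Whole embryos at 6 hpf read 3.05, 3.11, 0.162 and 0.108 CPM, so that replicates 1 and 2 stood far above replicates 3 and 4. The fall to 10 hpf (log2 -2.41, edgeR adjusted p = 0.0317) was lost under library totals (-2.05, edgeR adjusted p = 0.0885) and without any of 5 of the 8 libraries, among them replicate 1 (-1.90, edgeR adjusted p = 0.12) and replicate 2 (-1.87, edgeR adjusted p = 0.123) of 6 hpf and replicates 1, 2 and 3 of 10 hpf (edgeR adjusted p 0.0567 to 0.0909).

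The paralog fabp7b stayed low. In whole embryos it rose from 4 counts at 10 hpf to 64 at 26 hpf (log2 3.74 ± 1.23, SE; edgeR adjusted p = 0.0111), and the step to 48 hpf was short of the threshold (edgeR adjusted p = 0.0999). With the 8 libraries of that step alone it passed. Whole embryos held 1.15, 2.11, 1.32 and 2.28 CPM of it at 48 hpf, against 0.493, 0.168, 0 and 0.112 CPM in yolk, with no overlap (log2 -3.15 ± 1.11, SE; edgeR adjusted p = 0.019). That call was lost without replicate 3 (-2.73) or replicate 4 (-2.96) of yolk, each with an edgeR adjusted p of 0.0528. Without replicate 1 of yolk it was -4.15, and with library totals -3.82. In yolk fabp7b had 24 counts over the 4 libraries of 48 hpf. At 26 hpf it was not called between the tissues, on 14 counts in yolk and 64 in whole embryos. The libraries then overlapped, at 0 to 0.348 CPM in yolk and 0.148 to 0.506 CPM in whole embryos.

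Neural and glial markers were read beside the brain-type members. All 10 were lower in yolk at 26 hpf and at 48 hpf, with median log2 differences of -2.61 and -4.91. Over all genes 25.3% and 27.5% were lower. The astroglial gene gfap was at 1.29 CPM in yolk and 121 CPM in whole embryos at 48 hpf, and the neuronal gene elavl3 at 29.8 and 769 CPM. Summed over the list, yolk spanned 51.9 to 133 CPM and whole embryos 1987 to 2183 CPM at 48 hpf.

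The adipocyte-related members fabp11a and fabp11b, which belong with the mammalian adipocyte Fabp4 group, parted from each other. At 26 hpf fabp11a read 74.6, 101, 175 and 62.3 CPM in yolk and 32.5, 27.7, 24.3 and 24.8 CPM in whole embryos. All yolk libraries were higher, by 3.78-fold (log2 1.92 ± 0.47, SE; edgeR adjusted p = 0.00137). With library totals this difference no longer passed (0.81, edgeR adjusted p = 0.117). Without replicate 1 of yolk, the step of fabp11a to 48 hpf passed as a fall (-1.27, edgeR adjusted p = 0.0443). It also passed as a fall without replicate 4 of yolk at 26 hpf (-1.32) or replicate 1 of yolk at 48 hpf (-1.50), and in the DESeq2 Wald test (-1.18, DESeq2 adjusted p = 0.0403).

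At 10 hpf fabp11a read 8.54, 4.69, 0.531 and 5.89 CPM in yolk and 0.670, 0.579, 0.174 and 0.477 CPM in whole embryos. Yolk replicate 3 lay within the whole-embryo range, and the 10.3-fold difference passed (log2 3.36 ± 0.54, SE; edgeR adjusted p = 4.75e-06), or 2.47 on the log2 scale with library totals. From 10 to 26 hpf it rose 21.0-fold in yolk and 57.5-fold in whole embryos. At 48 hpf the tissues overlapped, with 77.7, 45.1, 41.6 and 22.6 CPM in yolk and 23.99 to 31.6 CPM in whole embryos.

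Blood and vessel markers were read beside fabp11a, since members of this group are found in endothelial cells and macrophages of mammals. At 26 hpf 4 of 11 were higher in yolk and 0 lower, among them the macrophage gene mpeg1.1 at 8.91 against 2.05 CPM and the neutrophil gene mpx at 72.0 against 16.6 CPM. The endothelial gene kdrl had a lower mean in yolk, at 22.3 against 34.3 CPM, short of the threshold. The sum of the 11 markers was lowest, at 867 CPM, in replicate 1 and 2818 to 4019 CPM in the other 3 yolk libraries. Over all genes 20.6% were higher and 25.3% lower at 26 hpf. With library totals 1 marker was higher and 3 were lower at 26 hpf, against 10% and 57% of all genes. Without replicate 1 of yolk 6 were higher and 1 lower. At 48 hpf 0 were higher and 2 lower, against 22.8% and 27.5% of all genes. Their part in the level of fabp11a was not tested.

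Transcripts of fabp11b were highest in whole embryos at 48 hpf. They read 8.91, 5.74, 6.89 and 7.44 CPM there, and 0.0352, 0, 0.114 and 0 CPM in yolk. The difference was 194-fold, on 5 counts in yolk (log2 -7.48 ± 1.00, SE; edgeR adjusted p = 1.39e-06). Without replicate 3 of yolk, which held most of those counts, the fitted value was -9.06. From 26 to 48 hpf it rose 16.7-fold in whole embryos (log2 4.05 ± 0.80; edgeR adjusted p = 0.000677). Neither tissue had a count at 10 hpf.

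At 26 hpf fabp11b had 2 counts in yolk and 88 in whole embryos, a ratio of 21.1 with an exact 95% counting interval of 5.68 to 177. Both yolk counts were in replicate 1, and the other 3 libraries held 0. At 6 hpf it had 18 counts in yolk and 2 in whole embryos, a ratio of 12.3 with an interval of 2.95 to 110. The call at 6 hpf was lost without replicate 1 of yolk (log2 2.54, edgeR adjusted p = 0.0709). Both whole-embryo counts were in replicate 2. Eye and lens markers, read here because fabp11b has been described in the zebrafish lens, were all lower in yolk at 48 hpf, 8 of 8. The share of all genes lower was 27.5%. The lens crystallin crygm2d1 was at 0.0561 CPM in yolk and 126 CPM in whole embryos.

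In whole embryos from 10 to 26 hpf 7 of 9 members rose and 1, fabp2, fell, where 30% of all genes were called higher and 26% lower. With the 8 libraries of the step alone, fabp7b, fabp10a and fabp11b were among those with too few counts to be tested. Of the 5 tested members 4 then rose and 1 fell, against 38.3% and 32% of all genes. The fall of fabp2 was 2.00-fold (log2 -0.997 ± 0.37, SE; edgeR adjusted p = 0.0247). It no longer passed with DESeq2 size factors (-0.79, edgeR adjusted p = 0.0674) or without replicate 3 of 26 hpf (-0.94, edgeR adjusted p = 0.0587), and in a DESeq2 Wald test (DESeq2 adjusted p = 0.0559).

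From 6 to 10 hpf 3 members rose and 2 fell in yolk, against 25.8% and 23.4% of all genes, and 2 rose and 2 fell in whole embryos, against 21.2% and 20%. With library totals those whole-embryo shares were 28.7% and 10.9%. In yolk fabp3 and fabp11b fell, the latter from 18 counts to 0. In whole embryos fabp7a, whose call is qualified above, and fabp10a fell, the latter from 35 counts to 0. With the libraries of the step alone 3 of 5 tested members rose and 1 fell in yolk, against 28.1% and 26.2% of all genes. In whole embryos 2 of 6 then rose and 0 fell, against 27.3% and 24.8%. From 10 to 26 hpf 4 rose and 0 fell in yolk, against 33.3% and 23.1%, and 0 also fell at an unadjusted p under 0.05 or in the DESeq2 Wald test.

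From 26 to 48 hpf 1 rose and 1 fell in each tissue. In yolk these were fabp10a and fabp2, against 12% and 16.1% of all genes, or 22.8% and 10% with library totals. In whole embryos they were fabp11b and fabp2, against 12.5% and 9.83%. The fall of fabp2 was thus shared by both tissues, at 5.82-fold in yolk and 4.77-fold in whole embryos (edgeR adjusted p = 1.33e-05 and 8.85e-05).

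Whether a step differed between the tissues was tested as a difference of changes. It is the log2 change in yolk minus that in whole embryos, so its sign does not tell a rise from a fall. From 6 to 10 hpf it was positive for 3 members and negative for 1, against 13.8% and 13% of all genes, or 7.17% and 20.3% with library totals. Positive were fabp11a (log2 2.89 ± 0.75, SE), fabp2 (1.92 ± 0.53, or 1.27 without replicate 2 of whole embryos at 6 hpf) and fabp1b.1 (1.11 ± 0.38). Negative was fabp3 (-1.60 ± 0.51), whose log2 change was -2.36 in yolk and -0.76 in whole embryos. The call of fabp1b.1 was lost under library totals (0.61, edgeR adjusted p = 0.167). It was also lost without any 1 of 7 of the 16 libraries (edgeR adjusted p 0.0503 to 0.0688), which were replicates 2 and 4 of whole embryos at 6 hpf, 1 and 2 of whole embryos at 10 hpf, 2 of yolk at 6 hpf, and 1 and 3 of yolk at 10 hpf. That of fabp3 was lost without replicate 2 or 3 of whole embryos at 10 hpf, replicate 3 of yolk at 6 hpf or replicate 1 of yolk at 10 hpf (edgeR adjusted p 0.0504 to 0.0603).

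From 10 to 26 hpf the difference was positive for 0 members and negative for 2, against 17.1% and 12.3% of all genes, or 11.1% and 13.8% with library totals. The DESeq2 Wald test and edgeR at an unadjusted p under 0.05 also called 0 members as positive. With the libraries of the comparison alone fabp2 was called so (log2 0.94, edgeR adjusted p = 0.0275). The 2 were fabp7a (log2 -4.65 ± 1.19, SE; edgeR adjusted p = 0.004; -6.12 without replicate 1 of yolk at 26 hpf) and fabp10a, whose fitted value rests on a group with 0 counts. The call of fabp10a was lost under the replicate block (-5.87, edgeR adjusted p = 0.0627) and without any 1 of 10 of the 16 libraries (edgeR adjusted p 0.052 to 0.139). These were all 4 whole-embryo libraries of 10 hpf, replicate 4 of whole embryos at 26 hpf, replicates 2 and 4 of yolk at 10 hpf and replicates 2, 3 and 4 of yolk at 26 hpf. From 26 to 48 hpf the difference was positive for 1 and negative for 1, against 9.29% and 13.2%, or 17.1% and 7.58% with library totals. These were fabp10a (5.67 ± 1.80) and fabp7a (-3.22 ± 1.07), and the former was lost without replicate 4 of whole embryos at 26 hpf (3.56, edgeR adjusted p = 0.207). That of fabp7a was lost without replicate 1 of yolk at 26 hpf (-1.75, edgeR adjusted p = 0.196) and under library totals (-2.97, edgeR adjusted p = 0.0574). It was also lost without replicate 2 or 3 of whole embryos at 26 hpf, replicate 2 of whole embryos at 48 hpf, or replicate 1 or 2 of yolk at 48 hpf (edgeR adjusted p 0.051 to 0.0623).

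As a share of all counts the 10 members together were a small part of the libraries. The median share was 0.0111% in yolk at 6 hpf, 0.298% at 10 hpf, 0.354% at 26 hpf and 0.239% at 48 hpf. In whole embryos it was 0.00342%, 0.0337%, 0.0826% and 0.0640%. The ranges of the 2 tissues did not overlap at any age, with 0.218% as the lowest yolk library and 0.0721% as the highest whole-embryo library at 48 hpf. The sum was carried by few members. In yolk at 48 hpf fabp1b.1 held 293982 counts over the 4 libraries and fabp2 58963, followed by fabp3 with 15596. In whole embryos of that age fabp3 led with 35522 counts, followed by fabp7a with 29830. The shares therefore do not describe each member.

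Relatives of the family, the retinoid binding proteins and the Fabps outside the 10 members, were read from a list of 12 tested genes. At 48 hpf 6 were higher in yolk and 3 lower, against 22.8% and 27.5% of all genes, with a median log2 difference of 1.05. The intestinal retinol binders rbp2a and rbp2b were among them, at 191 against 6.37 CPM and 213 against 8.99 CPM, and rbp2b rose from 21.9 to 213 CPM in yolk between 26 and 48 hpf. The retinoic acid binder crabp1a was lower in yolk, at 0.107 against 11.7 CPM. At 6, 10 and 26 hpf the counts higher and lower were 2 and 2, 6 and 2, and 5 and 2. The shares of all genes were 24.8% and 27.4%, 24.5% and 29.9%, and 20.6% and 25.3%.

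Genes that bring fatty acids into the cell and activate them lay upstream of the Fabps in the same route. Of 20 tested, 9, 12, 11 and 10 were higher in yolk at 6, 10, 26 and 48 hpf and 6, 6, 6 and 5 lower. Over all genes 24.8%, 24.5%, 20.6% and 22.8% were higher and 27.4%, 29.9%, 25.3% and 27.5% lower. At 10 hpf the transporter slc27a2a measured 1323 CPM in yolk and 66.2 CPM in whole embryos, the scavenger receptor cd36 414 and 22.4 CPM, and the acyl-CoA synthetase acsl1b 3321 and 248 CPM. By 48 hpf cd36 had fallen to 7.22 CPM in yolk, while slc27a2a was at 1085 CPM.

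Routes that use the carried fatty acids were also read. Of 13 triglyceride synthesis genes 8, 9, 11 and 7 were higher in yolk from 6 to 48 hpf and 3, 2, 1 and 4 lower, with the acyltransferase dgat2 at 1052 CPM in yolk and 43.9 CPM in whole embryos at 48 hpf. Of 15 lipoprotein assembly genes 10, 13, 14 and 13 were higher and 1, 0, 1 and 2 lower, among them apobb.1, an apolipoprotein B gene. Of 19 beta-oxidation genes 4, 11, 10 and 14 were higher and 3, 2, 2 and 1 lower, and the muscle-type carnitine transferase cpt1b was the lower one at 48 hpf. Median log2 differences at 48 hpf were 0.62, 4.59 and 0.94 for these lists. The shares of all genes were 24.8%, 24.5%, 20.6% and 22.8% higher and 27.4%, 29.9%, 25.3% and 27.5% lower.

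The nuclear receptors of the PPAR and RXR families, which respond to fatty acids and retinoids, were called in both directions. Of 13 tested with their coactivators, 3, 6, 3 and 3 were higher in yolk and 3, 2, 1 and 1 lower. Over all genes 24.8%, 24.5%, 20.6% and 22.8% were higher and 27.4%, 29.9%, 25.3% and 27.5% lower. At 48 hpf pparg measured 19.9 CPM in yolk and 4.23 CPM in whole embryos, and pparab 43.1 and 13.1 CPM. At 10 hpf pparg, named for this age after its values had been seen, was at 0.879 CPM in yolk against 2.59 CPM.

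The direction of some of these lists depended on the scaling, as read from library totals in place of TMM after the TMM counts had been seen. Of the 13 receptor genes 3, 3, 1 and 2 were then higher in yolk from 6 to 48 hpf and 4, 6, 8 and 5 lower. Of the 19 beta-oxidation genes 3, 7, 3 and 6 were higher and 5, 4, 9 and 3 lower, so that lower calls outnumbered higher ones at 6 and 26 hpf. Of the 20 uptake and activation genes 9, 10, 10 and 8 were higher and 7, 7, 9 and 8 lower, and of the 13 triglyceride synthesis genes 8, 9, 7 and 5 were higher and 5, 4, 4 and 5 lower. The 15 lipoprotein assembly genes kept their side, with 10, 13, 13 and 12 higher and 1, 1, 1 and 2 lower. With library totals 19.1%, 15%, 10% and 11.5% of all genes were higher and 33.7%, 47%, 57% and 42.5% lower.

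**Figure D5:**
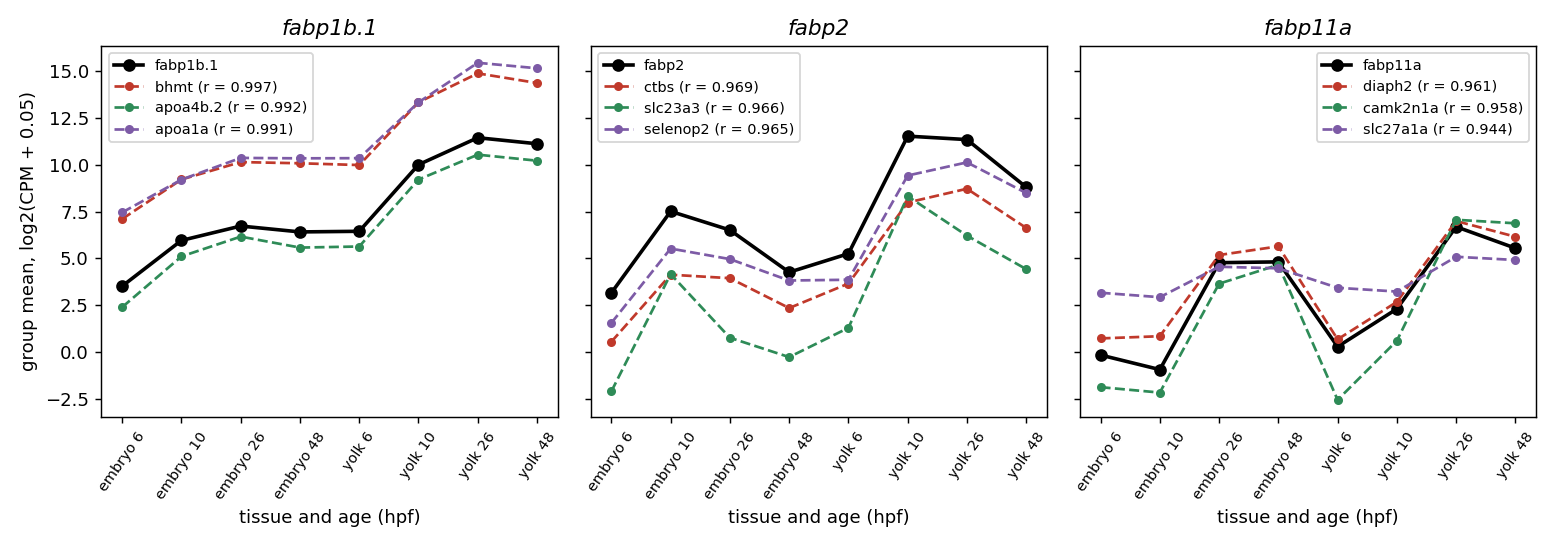
Group means as log2(CPM + 0.05) for fabp1b.1, fabp2 and fabp11a with the 3 genes most like each over the 32 libraries, on a horizontal axis of tissue and age in hpf. The curves differ in height, which is not comparable between genes. The order of the groups is the same for fabp1b.1, apoa4b.2 and apoa1a. For the other genes shown it is close to that of the member but not the same. For example, fabp2 is highest in yolk at 10 hpf and ctbs and selenop2 in yolk at 26 hpf.

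The genes most like each abundant member over the 32 libraries were found by Pearson correlation of log2 CPM among 12614 candidates, as a description without a test. The libraries share tissue and age, so high values are common. For fabp1b.1 they were bhmt (r = 0.9965), a methyltransferase of betaine, and the apolipoproteins apoa4b.2 (0.9918) and apoa1a (0.9905). For fabp2 they were ctbs (0.9685), slc23a3 (0.9657) and selenop2 (0.9653).

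For fabp11a the most like genes were diaph2 (r = 0.9606), camk2n1a (0.9575) and slc27a1a (0.9439), the last a fatty acid transporter. For fabp3 they were pcmt (0.9734), ehd2b (0.9659) and nedd4l (0.9639). For fabp7a they were the troponin tnnt3b (0.9625), the myosin light chain mylpfb (0.9622) and the neural membrane gene gpm6aa (0.9614), so that 2 of the 3 were muscle genes. Among these, bhmt was nearest to its member.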

How the data were processed

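RNA of 32 zebrafish libraries was analysed, out of 48 listed; the 16 of body tissue were not analysed here. Per the labels' protocols, TRIzol was used to extract the RNA, and a NEBNext Ultra II kit to build the libraries. The authors deposited raw counts per gene symbol, with 1 column per library. The submitters' processing notes name, per their list, the genome build GRCz11, the aligner STAR 2.7.10b, the counter featureCounts 2.0.6, Trim Galore 0.6.10 and FastQC 0.12.1. Settings, strand and annotation were not given in the sources used here, so overlapping or antisense genes could not be told apart. Groups and replicate numbers came from the sample titles.

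Counts were filtered with filterByExpr (minimum count 10, minimum total 15), TMM-scaled, and fitted in R 4.3.3 with edgeR 4.0.16 (glmQLFit, robust) as 8 group means with 24 residual degrees of freedom and a common dispersion of 0.172. The 13 comparisons were two-sided, and p-values were adjusted over all 26268 genes tested, with a threshold of 0.05. Standard errors were derived by dividing a log2 change by the square root of F. For a group with 0 counts the ratio was taken against 3 counts over the group, without an interval for the counts of the other group. A group with 1 to 3 counts gave a ratio with an exact 95% interval. Counts were mostly even numbers: 21.3% of values from 1 to 19 were odd. Counts may therefore not be independent fragments. Intervals, and the limit of 3 counts for a group with 0, cover counting error only and may be too narrow. Exact permutation tests used SciPy 1.17.1. The method was tested on simulated data.

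The members, and 15 gene lists of relatives, lipid pathways, bile acid genes, receptors and tissue markers, were chosen with earlier results of these data known, so they give no independent support. All members are accounted for. Named by rule were the 3 genes most like each member of at least 10 CPM in its highest group, and from each list up to 4 genes ranked by size of change plus 2 ranked by level.

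No replicates agreed within sampling noise (chi-square per gene at least 17.6). Over 9034 genes, libraries of the same number departed in the same direction from the means of their groups for yolk against whole embryo, with correlations of 0.23 to 0.43, 0.19 to 0.38, 0.22 to 0.31 and 0.2 to 0.41 from 6 to 48 hpf, and for yolk at 10 against 6 hpf, with 0.22 to 0.3. There the numbers pair the libraries; this was read from the data, and no label explains the numbers. Alternatives were DESeq2 1.42.0 size factors, library totals, no filter, the DESeq2 Wald test, the libraries of a comparison alone, a replicate block, removal of mitochondrially encoded genes, summing fabp1b.1 with fabp1b.2, and leaving out each library. The list counts under other scalings or without replicate 1 of yolk at 26 hpf, and the paired test of the ratio, were added after the data were seen.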

Additional observations from a re-analysis of the deposited data

Results flagged for a closer look

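In 3 of 65 groups of 4 libraries 1 library lay apart from the others by Dixon's criterion, where chance gives about 1 in 20. For fabp1b.1 it was whole embryo replicate 3 at 26 hpf, at 99.8 CPM with the others between 108 and 108.6 CPM. For fabp3 it was yolk replicate 1 at 26 hpf, at 165 CPM, the library that also held the most muscle, heart and neural markers. For fabp10a it was the same library, at 0.174 CPM from 6 counts with 0 in the others.

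The change between ages was called as different between yolk and whole embryo in 8 tests of the difference itself, with 9 members tested at each step. Over all genes 13.8% were called positive and 13% negative from 6 to 10 hpf. These shares were 17.1% and 12.3% from 10 to 26 hpf, and 9.29% and 13.2% from 26 to 48 hpf. From 6 to 10 hpf the log2 difference of changes was 1.11 for fabp1b.1, 1.92 for fabp2, -1.60 for fabp3 and 2.89 for fabp11a. From 10 to 26 hpf it was -4.65 for fabp7a and -7.04 for fabp10a. From 26 to 48 hpf it was -3.22 for fabp7a and 5.67 for fabp10a. The value of fabp10a from 10 to 26 hpf involves whole embryos at 10 hpf with 0 counts, so its size depends on the prior count. The calls of fabp1b.1, fabp3, fabp7a from 26 to 48 hpf and fabp10a at both steps were lost under some of the settings or left-out libraries given above.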

How the results depend on the processing

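Leaving out the low-count filter or mitochondrially encoded genes changed no call in the 80 member tests compared. These were all tests of members of at least 10 CPM in their highest group. Of the other members they were only the tests called in the main fit. With the libraries of the comparison alone, 1 of 5 tested members was lower in yolk from 6 to 10 hpf, against 26.2% of all genes. In whole embryos 0 of 6 were lower from 6 to 10 hpf, against 24.8%. From 10 to 26 hpf 4 of 5 were higher there, against 38.3%. From 26 to 48 hpf 3 of 8 were higher and 2 lower there, against 27.8% and 25.1%. For the difference of changes from 10 to 26 hpf 1 of 6 was higher and 1 lower, against 21.6% and 11.1%. Between the tissues 2 of 6 were lower at 26 hpf, against 18.7%, and 4 of 8 at 48 hpf, against 36.3%. The DESeq2 Wald test called 2 lower in yolk from 26 to 48 hpf, against 18.6% of all genes. It and DESeq2 size factors called 0 lower in whole embryos from 10 to 26 hpf, against 22.7% and 21.3%. Library totals called 1 lower in whole embryos from 6 to 10 hpf, against 10.9%. They called 0 lower for the difference from 26 to 48 hpf, against 7.58%. Smaller changes of a count under these settings are not listed here.

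The replicate block called 2 higher in whole embryos from 26 to 48 hpf, where fabp7a passed (log2 2.03, edgeR adjusted p = 0.0419), and 1 lower for the difference from 10 to 26 hpf, where fabp10a was lost (-5.87, edgeR adjusted p = 0.0627). The block changed no other call in the 80 member tests compared. From 26 to 48 hpf the numbers did not pair the whole-embryo libraries. Yolk and whole embryo were paired at 10 and at 26 hpf, but the numbers did not pair 10 with 26 hpf in either tissue. The block fits 1 effect per number over all ages, so it does not model a pairing held within an age. The main tests leave that pairing out.

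Signs changed in values short of the threshold. With library totals fabp1b.1 from 26 to 48 hpf was 0.12 in yolk and 0.53 as a difference of changes, fabp2 was 0.25 as that difference, and fabp11a was -0.044 in whole embryos from 26 to 48 hpf, or -0.061 with those libraries alone. For fabp3 the difference from 10 to 26 hpf was -0.028 with DESeq2 size factors and -0.026 in the Wald test.

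With each library left out in turn, the values with changed sign ran from -0.40 to 0.00133 for fabp3 and from -0.85 to 0.33 for fabp7a between tissues at 6 hpf, from -0.56 to 0.47 for fabp7a in yolk from 6 to 10 hpf and from -1.68 to 0.15 from 26 to 48 hpf, from -0.022 to 0.14 for fabp11a in whole embryos from 26 to 48 hpf, from -0.36 to 0.47 for fabp3 as the difference from 10 to 26 hpf, and from -0.21 to 0.22 for fabp1b.1 as that from 26 to 48 hpf. Counts of members between the tissues ran from 2 to 3 higher at 6 hpf, from 3 to 5 higher at 10 hpf and from 2 to 3 lower at 48 hpf. In yolk they ran from 3 to 4 higher from 10 to 26 hpf, and from 1 to 2 higher and 1 to 2 lower from 26 to 48 hpf. In whole embryos they ran from 1 to 3 lower from 6 to 10 hpf, and from 6 to 7 higher and 0 to 1 lower from 10 to 26 hpf. For differences of changes they ran from 2 to 3 higher and 0 to 1 lower from 6 to 10 hpf, and from 1 to 3 lower from 10 to 26 hpf. The last such difference, from 26 to 48 hpf, ran from 0 to 2 higher and 0 to 1 lower. The cause of these changes was not tested. Depth limits fabp1a, fabp6, fabp7b, fabp10a before 48 hpf and fabp11b in yolk, where groups hold few counts.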
